A study of Homo sapiens with 6 samples.

Results

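Serine synthesis and one-carbon enzymes were followed here as 9 genes, PHGDH, PSAT1, PSPH, SHMT1, SHMT2, MTHFD1, MTHFD1L, MTHFD2 and ALDH1L2, in DLD1 cells, an established human colorectal adenocarcinoma line. The members are the 20 probe sets, of 54613 that are no array controls, whose annotation names 1 of these 9 genes and no other gene. A probe set is a group of short probes on the array that are read together as 1 value, for 1 or more transcripts. The tested cells received 10 µM SAH-BCL9B for 12 h, and the controls received the DMSO vehicle for 12 h; SAH-BCL9B is a hydrocarbon-stapled peptide modelled on the helix of BCL9 that binds beta-catenin. Each group had 3 Affymetrix Human Genome U133 Plus 2.0 arrays, which the labels describe as triplicate cultures, with no control peptide in the comparison. The labels do not say whether the triplicates were set up independently, so p-values measure the spread between these arrays, which may be technical. The 9 genes were chosen by what their enzymes do, with the changes between these same 2 groups in view, so their changes and the counts below are a description and no independent support for a change in the pathway.

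Serine is made from the glycolytic intermediate phosphoglycerate in a chain of reactions run by PHGDH, PSAT1 and PSPH. Serine hydroxymethyltransferases then move a carbon unit from serine onto tetrahydrofolate, which leaves glycine, and the folate-bound carbon is used to make purines, thymidylate and methionine. The reactions run in parallel in the cytosol, with SHMT1 and MTHFD1, and in the mitochondrion, with SHMT2, MTHFD2, MTHFD1L and ALDH1L2. Several of the genes, PHGDH, PSAT1, PSPH, SHMT2 and MTHFD2 among them, are known targets of ATF4, the transcription factor of the amino acid stress response.

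Transcripts of PHGDH, PSAT1, SHMT2 and MTHFD2 were lower after SAH-BCL9B in every probe set that names them alone, and PSPH was lower in 1 of 3. With limma, and p-values adjusted over all 54613 probe sets by the Benjamini-Hochberg method (threshold 0.05), 9 of the 20 member probe sets fell, none rose and 11 did not pass, where 1.37% of all probe sets fell and 1.12% rose. The 9 belonged to PHGDH, PSAT1, PSPH, SHMT2 and MTHFD2, and their falls ran from 1.52-fold in a probe set of SHMT2 to 2.56-fold in a probe set of PSAT1. The 3 SAH-BCL9B arrays lay wholly below the 3 vehicle arrays in these 9 member probe sets, as they did in 9.73% of all probe sets. In 2 dim member probe sets, MTHFD1L 1561125_at and ALDH1L2 1559393_at, they lay wholly above the vehicle arrays, as in 12.3% of all probe sets; neither passed, and the first had an unadjusted p under 0.05. No probe set of the cytosolic enzymes SHMT1 and MTHFD1 passed.

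Deposited levels are RMA values on the log2 scale, and a level of 1 probe set cannot be set against that of another. The 20 member probe sets spanned vehicle means from 3.81 to 14.22, around a median of 6.60 for all probe sets. Of them, 12 lay above that median, and these include all 9 that fell. Among all 27306 probe sets above the median, 686 fell and 565 rose. The other 8 member probe sets, which include all the probe sets naming SHMT1, MTHFD1L or ALDH1L2 alone, lay below the median. A negative change was found in 14 of the 20, namely all 12 brighter ones and 2 of the 8, where 46.8% of all probe sets had one. Signal over background is unknown and RMA understates changes of dim probe sets, so no direction is read for these 3 genes from those 8 probe sets. The lowest adjusted p among the 8 was 0.292.

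**Figure D1:**
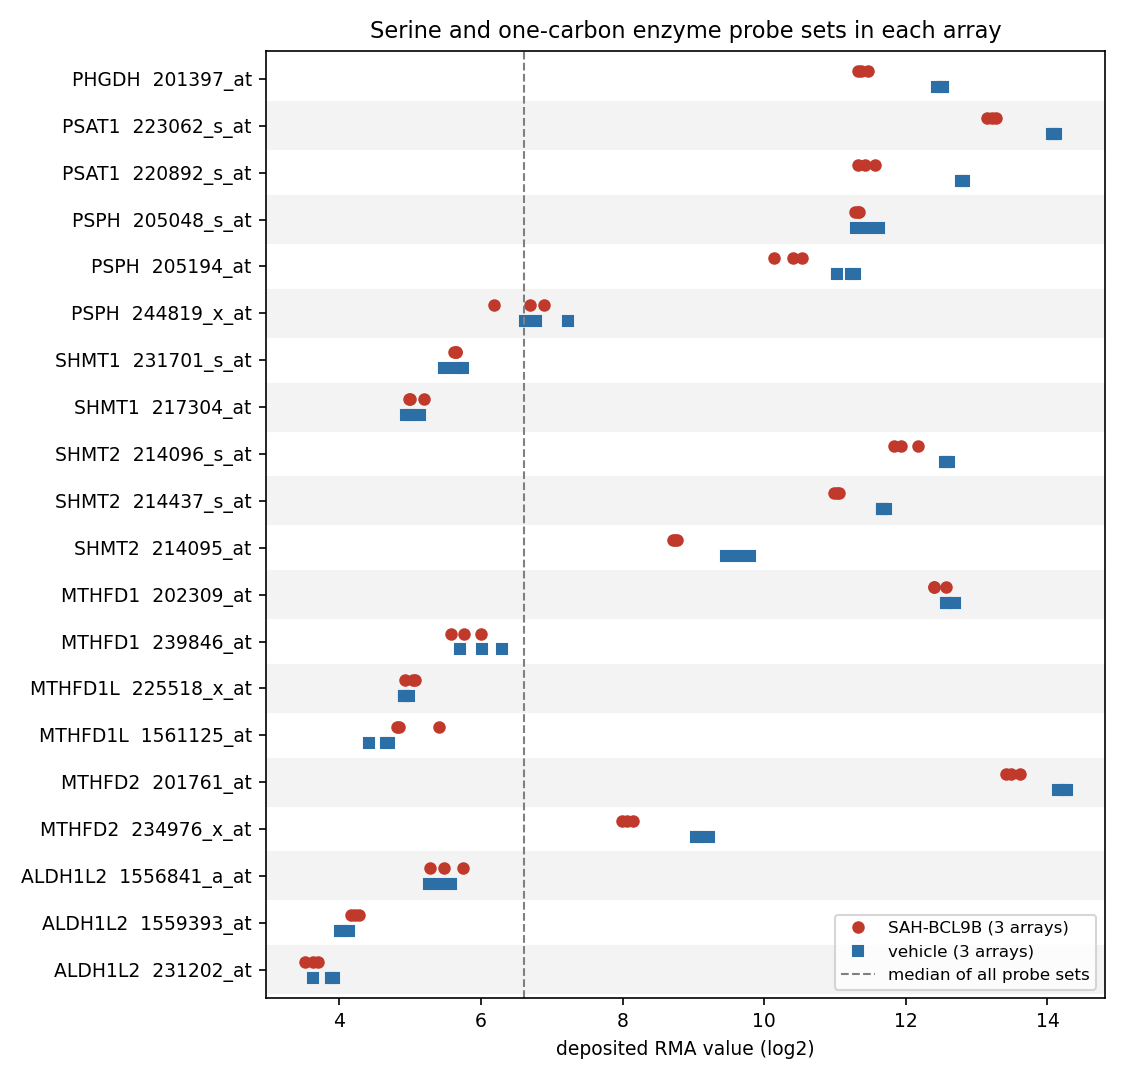
Deposited log2 value (x axis) of each of the 20 member probe sets (rows) in the 3 SAH-BCL9B arrays (circles) and the 3 vehicle arrays (squares), with the median of all probe sets as a dashed line. The circles lie left of the squares without overlap for PHGDH, both PSAT1 probe sets, PSPH 205194_at, the SHMT2 probe sets and both MTHFD2 probe sets.

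The promoters of 3 genes that fell, and of MTHFD1, a cytosolic enzyme gene that did not pass, are shown to give the sequence around genes that moved together. RefSeq windows from 250 bases before to 50 bases after the transcription start were given for 6 of the 9 genes (PHGDH, PSAT1, SHMT1, MTHFD1, MTHFD1L and MTHFD2), 9 windows in all, since MTHFD1L had 4, of which 3 overlap. The stretches printed are the 250 bases before the start on the plus strand of GRCh38.p14, at chr1:119711684-119711933 for PHGDH, chr9:78296875-78297124 for PSAT1, chr2:74198365-74198614 for MTHFD2 and chr14:64388103-64388352 for MTHFD1. Capitals mark matches to CCAAT, a motif bound by the factor NF-Y, and in MTHFD1 also a match to CACGTG, the E-box bound by MYC and related factors.
PHGDH: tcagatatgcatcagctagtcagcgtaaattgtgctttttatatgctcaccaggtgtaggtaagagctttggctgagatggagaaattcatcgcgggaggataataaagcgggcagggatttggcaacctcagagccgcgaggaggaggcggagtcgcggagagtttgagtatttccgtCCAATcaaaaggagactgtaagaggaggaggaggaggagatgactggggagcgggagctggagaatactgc
PSAT1: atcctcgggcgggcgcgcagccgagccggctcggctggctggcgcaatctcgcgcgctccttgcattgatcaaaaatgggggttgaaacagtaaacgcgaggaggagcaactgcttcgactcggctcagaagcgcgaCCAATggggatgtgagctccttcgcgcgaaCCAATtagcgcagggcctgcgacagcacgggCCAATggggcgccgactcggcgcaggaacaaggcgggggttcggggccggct
MTHFD2: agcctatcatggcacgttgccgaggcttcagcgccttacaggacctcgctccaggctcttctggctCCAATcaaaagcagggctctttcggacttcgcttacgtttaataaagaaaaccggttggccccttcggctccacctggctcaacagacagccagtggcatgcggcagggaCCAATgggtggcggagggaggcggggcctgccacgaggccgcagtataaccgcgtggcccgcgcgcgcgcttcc
MTHFD1: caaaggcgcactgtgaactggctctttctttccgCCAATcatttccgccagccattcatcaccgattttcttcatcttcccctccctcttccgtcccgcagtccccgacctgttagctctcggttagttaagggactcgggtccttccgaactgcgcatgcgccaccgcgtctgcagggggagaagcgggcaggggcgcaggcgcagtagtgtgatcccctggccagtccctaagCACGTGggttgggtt
The motifs were searched on both strands. CCAAT was present in 8 of the 9 windows, all but the MTHFD1L window that lies apart, and in 34.6% of all 35116 RefSeq windows of the same length. PSAT1 held 3 copies, 113, 83 and 52 bases before the start. CACGTG was present in 4 of the 9, the MTHFD1 window and the 3 overlapping ones of MTHFD1L, and in 7.26% of all windows. TGATGNAA, the core of the composite element bound by C/EBP and ATF4, was present in the same 3 overlapping windows of MTHFD1L and in 3.62% of all windows. The 3 overlapping windows of MTHFD1L share the same site of each motif, so the counts by window repeat it. By gene, CCAAT was present in 6 of the 6 genes with a window, CACGTG in 2 and TGATGNAA in 1. These matches describe the letters of short windows and say nothing of binding.

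PHGDH encodes phosphoglycerate dehydrogenase, the enzyme of the first step of serine synthesis. Its probe set 201397_at had log2 values of 11.36, 11.46 and 11.32 in the SAH-BCL9B arrays, against 12.53, 12.53 and 12.44 in the vehicle arrays. All 3 SAH-BCL9B arrays were lower than every vehicle array, and the SD was 0.07 within the SAH-BCL9B group and 0.05 within the vehicle group. The change was -1.12 ± 0.08 (log2, limma SE), a 2.17-fold fall (adjusted p = 0.00319). Counted as 1 probe set per gene, 31 of 19775 genes had a larger fall than PHGDH. A further probe set, 212995_x_at, which the annotation shares between PHGDH, MZT2A and MZT2B and which is no member, changed by -0.19 ± 0.08 and did not pass (limma adjusted p = 0.301).

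PSAT1 encodes phosphoserine aminotransferase, the enzyme of the second step. Probe set 220892_s_at had log2 values of 11.42, 11.57 and 11.33 in the SAH-BCL9B arrays, against 12.82, 12.79 and 12.78 in the vehicle arrays. In 223062_s_at the values were 13.27, 13.15 and 13.21 with SAH-BCL9B, against 14.12, 14.10 and 14.06 with vehicle. The groups were apart in both probe sets, and the vehicle arrays were the tighter group in each. The changes were -1.35 ± 0.09 for 220892_s_at and -0.89 ± 0.08 for 223062_s_at (limma SE, adjusted p = 0.00202 and 0.00498). Only 33 of 54613 probe sets had a larger fall than 220892_s_at.

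PSPH encodes phosphoserine phosphatase, the enzyme of the last step, and its 3 probe sets did not move alike. In 205194_at the log2 values were 10.40, 10.14 and 10.53 with SAH-BCL9B, against 11.23, 11.28 and 11.02 with vehicle. The groups were apart, and the change was -0.82 ± 0.13 (limma SE, adjusted p = 0.0238). In 205048_s_at they were 11.34, 11.28 and 11.33 with SAH-BCL9B, against 11.61, 11.47 and 11.29 with vehicle. Here vehicle 3 lay among the SAH-BCL9B arrays, and the change was -0.14 ± 0.10 (adjusted p = 0.612). The third, 244819_x_at, had overlapping groups (6.69, 6.18 and 6.89 with SAH-BCL9B, 7.23, 6.78 and 6.62 with vehicle) and a change of -0.29 ± 0.22 (adjusted p = 0.63). The reference lists a pseudogene copy of PSPH, PSPHP1, and whether any of the probes also read it was not tested. Taken as 1 probe set per gene by the highest mean, PSPH did not pass (adjusted p = 0.472).

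Probe sets of 1 gene gave changes of different size. For each gene the probe set with the highest mean was paired with each of its others above the median level, which gave 6 pairs that share probe sets within PSPH and SHMT2. The within-array difference between the 2 probe sets was higher in the 3 SAH-BCL9B arrays than in the 3 vehicle arrays, without overlap, for PSAT1 (by 0.47), for PSPH 205048_s_at minus 205194_at (by 0.68) and for MTHFD2 (by 0.33). Each of these 3 had an exact two-sided permutation p of 0.1, which is the smallest that 3 against 3 arrays allow, and 0.2 after Benjamini-Hochberg adjustment over the 6 pairs. For the other 3 pairs, the remaining PSPH pair and both of SHMT2, the groups overlapped.

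**Figure D2:**
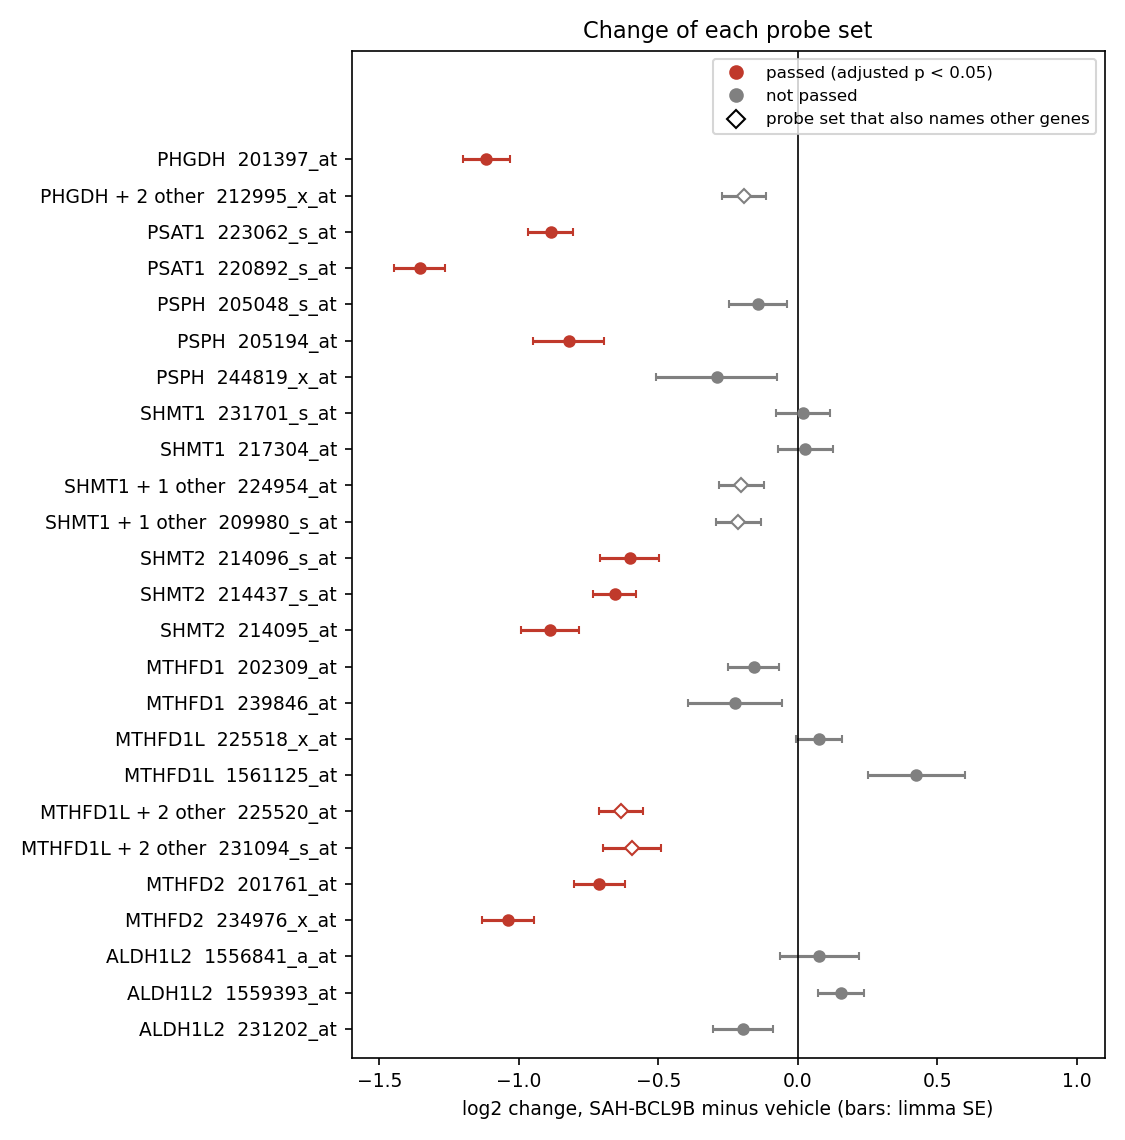
Log2 change, SAH-BCL9B minus vehicle, with limma's SE as bars (x axis) for the 20 member probe sets (circles) and 5 probe sets whose annotation names a member together with other genes (open diamonds); red marks an adjusted p under 0.05. The PHGDH, PSAT1, SHMT2 and MTHFD2 circles all lie at -0.60 or lower, the SHMT1 circles lie close to 0, and the open diamonds beside MTHFD1L lie far below its circles.

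SHMT2 encodes the mitochondrial serine hydroxymethyltransferase, and all 3 of its probe sets fell. In 214437_s_at the log2 values were 11.05, 11.03 and 10.99 with SAH-BCL9B, against 11.72, 11.67 and 11.66 with vehicle. In 214096_s_at they were 11.93, 12.17 and 11.83 with SAH-BCL9B, against 12.61, 12.57 and 12.55 with vehicle. In 214095_at they were 8.74, 8.71 and 8.77 with SAH-BCL9B, against 9.62, 9.80 and 9.46 with vehicle. No SAH-BCL9B array reached the vehicle range in any of the 3 SHMT2 probe sets. The changes were -0.66 ± 0.08, -0.60 ± 0.11 and -0.89 ± 0.10 (limma SE, adjusted p = 0.0115, 0.0334 and 0.0111).

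MTHFD2 encodes the mitochondrial methylenetetrahydrofolate dehydrogenase and cyclohydrolase. In 201761_at the log2 values were 13.41, 13.49 and 13.61 with SAH-BCL9B, against 14.27, 14.23 and 14.14 with vehicle. In 234976_x_at they were 8.06, 8.15 and 7.99 with SAH-BCL9B, against 9.07, 9.22 and 9.03 with vehicle. Both probe sets had groups that did not overlap. The changes were -0.71 ± 0.09 and -1.04 ± 0.09 (limma SE, adjusted p = 0.0141 and 0.00473), and the second is a 2.06-fold fall. The name of 234976_x_at ends in _x_at, which the manufacturer gives to probe sets that may read similar sequences, and the reference lists pseudogene copies of MTHFD2.

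MTHFD1L encodes the mitochondrial formyltetrahydrofolate synthetase, and its reading depended on which probe sets were used. The 2 probe sets that name it alone had vehicle means of 4.93 and 4.59, well below the median of all probe sets, and changes of 0.08 ± 0.08 and 0.43 ± 0.17 (limma SE, adjusted p = 0.775 and 0.292). The annotation gives 2 other probe sets, 225520_at and 231094_s_at, to MTHFD1L together with 2 uncharacterised LOC genes, so these are no members. In 225520_at the log2 values were 10.58, 10.55 and 10.62 with SAH-BCL9B, against 11.23, 11.17 and 11.25 with vehicle. In 231094_s_at they were 8.43, 8.52 and 8.46 with SAH-BCL9B, against 9.09, 9.22 and 8.89 with vehicle. Both passed, with changes of -0.64 ± 0.08 and -0.59 ± 0.11 (limma adjusted p = 0.0128 and 0.0342). Which of the 3 named genes gave that signal was not tested.

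ALDH1L2 encodes the mitochondrial formyltetrahydrofolate dehydrogenase. Its 3 probe sets had vehicle means of 5.42, 4.06 and 3.81 and changes of 0.08 ± 0.14, 0.16 ± 0.08 and -0.20 ± 0.11 (limma SE, lowest adjusted p = 0.45). No change of this transcript could be read at these levels.

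Of the cytosolic enzymes, MTHFD1 carries the synthetase, cyclohydrolase and dehydrogenase activities in 1 protein. Its probe set 202309_at had log2 values of 12.40, 12.57 and 12.40 with SAH-BCL9B, against 12.58, 12.56 and 12.70 with vehicle. SAH-BCL9B 2 lay inside the vehicle range, and the change was -0.16 ± 0.09 (limma SE, adjusted p = 0.492). The dim MTHFD1 probe set 239846_at changed by -0.23 ± 0.17 (adjusted p = 0.633). SHMT1, the cytosolic serine hydroxymethyltransferase gene, had 2 dim probe sets with changes of 0.02 ± 0.10 and 0.03 ± 0.10 (adjusted p = 0.966 and 0.949). The 2 brighter probe sets that the annotation shares between SHMT1 and the microRNA gene MIR6778 did not pass either. In 224954_at the log2 values were 11.39, 11.31 and 11.29 with SAH-BCL9B, against 11.59, 11.49 and 11.52 with vehicle, a change of -0.20 ± 0.08 (adjusted p = 0.29). In 209980_s_at the change was -0.21 ± 0.08 (adjusted p = 0.25), and the groups did not overlap in either.

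Mitochondrial and cytosolic enzymes were compared by their changes, as within-array differences between the probe sets with the highest mean. MTHFD2 minus MTHFD1 was 1.02, 0.92 and 1.21 in the SAH-BCL9B arrays, against 1.69, 1.67 and 1.44 in the vehicle arrays. The MTHFD2 probe set 201761_at thus fell by 0.55 more on the log2 scale than the MTHFD1 probe set 202309_at. SHMT2 minus SHMT1 differed by -0.62 between SAH-BCL9B and vehicle with the dim SHMT1 probe set 231701_s_at. With the shared probe set 224954_at in its place it was 0.54, 0.85 and 0.54 in the SAH-BCL9B arrays, against 1.01, 1.09 and 1.04 in the vehicle arrays, a difference of -0.40. MTHFD1L minus MTHFD1 differed by 0.23 with the dim MTHFD1L probe set 225518_x_at and by -0.48 with the shared probe set 225520_at, so its direction turned with the probe set. The groups did not overlap in any of these 5 differences, and the exact two-sided permutation p was 0.1 in each, the smallest possible with 3 against 3 arrays (0.1 also after adjustment over the 3 gene pairs). Probe sets of 1 gene also differed without overlap, by 0.33 for MTHFD2, 0.47 for PSAT1 and 0.68 for PSPH, while the other 3 such pairs overlapped. Whether the enzymes differ by more than probe sets of 1 gene do was not tested.

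**Figure D3:**
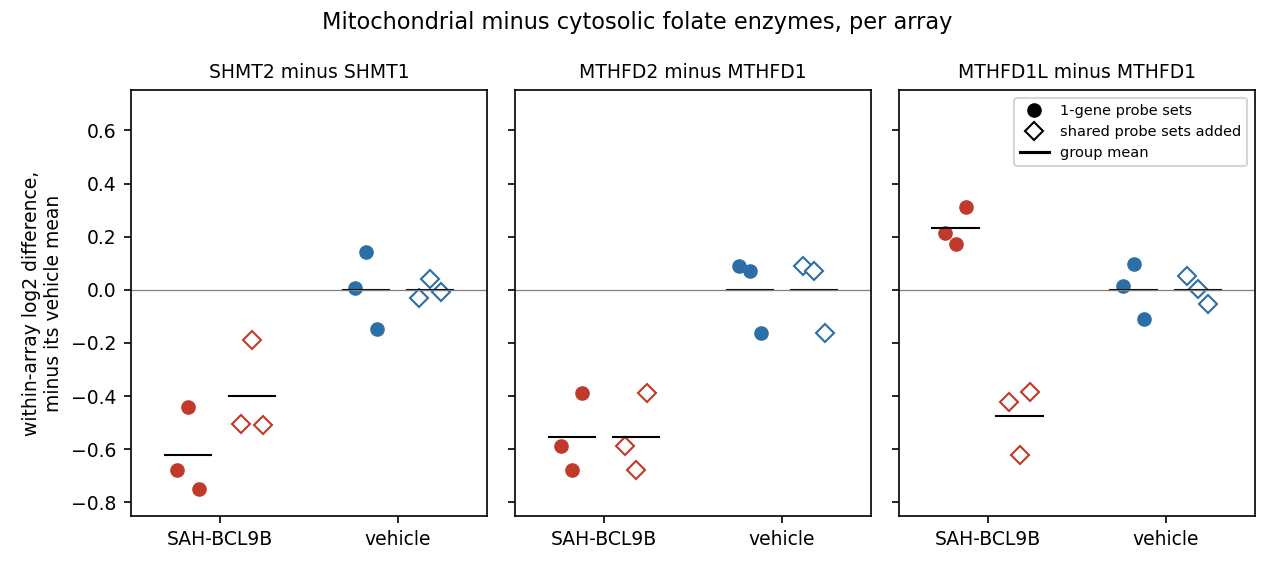
Within-array log2 difference between a mitochondrial and a cytosolic enzyme, shown relative to its vehicle mean (y axis), in the 3 SAH-BCL9B arrays (left in each panel) and the 3 vehicle arrays (right); lines are group means, filled circles use probe sets that name 1 gene, and open diamonds allow shared ones. For MTHFD2 minus MTHFD1 the SAH-BCL9B mean is 0.55 below the vehicle mean, and for MTHFD1L minus MTHFD1 the SAH-BCL9B circles lie above 0 and the SAH-BCL9B diamonds below it.

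The falls did not all survive the loss of 1 array. The number of member probe sets that fell was 4 without SAH-BCL9B 1, SAH-BCL9B 3, vehicle 1 or vehicle 2, 7 without vehicle 3 and 9 without SAH-BCL9B 2. The 4 were those of PHGDH (201397_at), PSAT1 (223062_s_at and 220892_s_at) and MTHFD2 (234976_x_at), which passed in all 13 alternatives (highest adjusted p = 0.0386, 0.0476, 0.0258 and 0.0473). The 3 SHMT2 probe sets, MTHFD2 201761_at and PSPH 205194_at missed the threshold without any 1 of those 4 arrays, with adjusted p from 0.052 to 0.16, and PSPH 205194_at and SHMT2 214096_s_at also without vehicle 3. With 1 array left out, the changes of these 5 probe sets stayed between -0.97 and -0.53.

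Genes around the pathway were read from 4 lists, chosen for what the genes do and with earlier results of these data known. Each gene was read by 1 probe set (the highest mean over the 6 arrays), with adjustment over 19775 genes, of which 3.43% fell and 3.49% rose. On this reading 4 of the 9 member genes fell (PHGDH, PSAT1, SHMT2 and MTHFD2) and none rose, with a median log2 change of -0.16 against 0.02 for all genes. SHMT2 missed the threshold without SAH-BCL9B 1, SAH-BCL9B 3, vehicle 1 or vehicle 2 (highest limma adjusted p = 0.068). It also missed it with the replicate number as a block, and in each of these settings 3 member genes fell. Of 16 measured genes of folate supply, reduction and other one-carbon steps, 1 fell and none rose (median change -0.06). It was TYMS, which encodes thymidylate synthase, with -0.30 ± 0.07 (limma SE, adjusted p = 0.0469), and its call was lost when any 1 array was left out (adjusted p from 0.065 to 0.19). TYMS has 3 probe sets, 1 of them with a positive change, and over all alternatives its change ran from -0.32 to -0.12. ALDH1L1, the cytosolic counterpart of ALDH1L2, changed by 0.07 ± 0.14 (adjusted p = 0.87). Of 10 measured genes of the methionine cycle and transsulfuration none passed in limma's test and 2 had an unadjusted p under 0.05, as did 21.4% of all genes (median -0.07), and the changes ran from -0.31 to 0.16.

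Purine synthesis, which takes up folate-bound carbon, had 3 of 11 measured genes lower and none higher (median change -0.16). PAICS, which encodes a bifunctional enzyme of the middle of the pathway, had log2 values of 12.35, 12.42 and 12.37 with SAH-BCL9B, against 12.97, 12.99 and 12.81 with vehicle (change -0.55 ± 0.08, limma SE, adjusted p = 0.00901). PFAS, another purine enzyme gene, changed by -0.48 ± 0.11 and GART, which encodes an enzyme that uses formyltetrahydrofolate, by -0.42 ± 0.08 (adjusted p = 0.0385 and 0.0233). The number of purine genes that fell was 0 without vehicle 1, 1 without vehicle 2, vehicle 3 or SAH-BCL9B 3, 2 without SAH-BCL9B 1 and 4 without SAH-BCL9B 2. GART has 9 probe sets, 2 of them with a positive change, and averaged over the 9 its change was -0.20 (limma adjusted p = 0.496).

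ATF4 and amino acid stress genes outside one-carbon metabolism had 15 of 18 measured members lower and none higher, with a median log2 change of -0.85. This list was drawn up with falls of several of its genes already known, so its count is a description. The count was 11 to 14 with 1 array left out, and 12 with the replicate number as a block. NUPR1, a stress-induced chromatin protein gene, changed by -1.76 ± 0.15 and PCK2, the mitochondrial phosphoenolpyruvate carboxykinase gene, by -1.74 ± 0.09 (limma SE). VLDLR, a lipoprotein receptor gene, and ASNS, the asparagine synthetase gene, changed by -1.44 ± 0.11 and -1.08 ± 0.08. No gene of any of the 4 lists rose, also at an unadjusted p under 0.05 in limma, where 2412 of all 19775 genes did. All 4 lists were chosen with earlier results of these data known, so this too is a description. The ATF4 transcript itself had log2 values of 14.04, 13.96 and 13.86 with SAH-BCL9B, against 14.43, 14.40 and 14.36 with vehicle. Its change was -0.44 ± 0.08 (limma adjusted p = 0.0177), with the groups apart. The ATF4 transcript missed the threshold without vehicle 1, vehicle 2 or SAH-BCL9B 3 (highest adjusted p = 0.094). With the replicate number as a block it missed the threshold too (limma adjusted p = 0.067). The largest fall among the members by 1 probe set per gene, -1.12 for PHGDH, lay between those of VLDLR and ASNS.

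**Figure D4:**
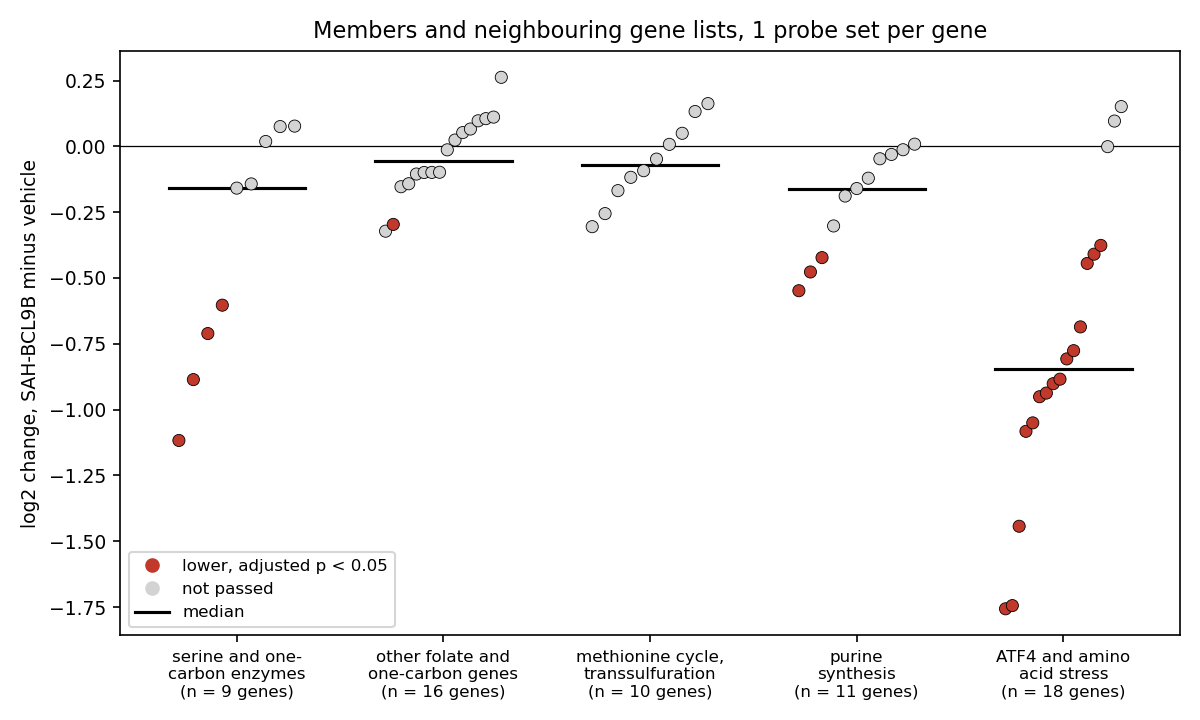
Log2 change, SAH-BCL9B minus vehicle (y axis), of each gene by 1 probe set in the 9 member genes and 4 neighbouring lists (x axis), with genes at an adjusted p under 0.05 in red and list medians as lines. Red points make up 4 of 9 members, 1 of 16 folate genes, none of 10 methionine cycle genes, 3 of 11 purine genes and 15 of 18 ATF4 and amino acid stress genes.

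The genes whose 6 values were most like those of a member were found by Pearson correlation among 12069 other genes above the median level. For PHGDH they were EIF4EBP1, NFYB and PCP4, for PSAT1 S100P, LFNG and TMT1A, and for MTHFD2 TYMS, CENPM and IGSF5, with r from 0.998 to 0.999. The 6 arrays fall into 2 groups, so such a value mostly restates that both genes were lower with SAH-BCL9B: 510 genes had an r over 0.95 with PHGDH.

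Checks of the arrays bear on these results as follows. All 8 colorectal epithelial markers lay above the median level, while 0 of 4 leukocyte, 1 of 4 endothelial and 2 of 5 fibroblast markers did, and none of these 13 other markers passed in limma's test, even unadjusted. The epithelial markers themselves moved: VIL1 (-0.86, adjusted p = 0.00303) and CDH17 (-0.55, adjusted p = 0.00806) fell, KRT8 rose (0.50, adjusted p = 0.0113), and 6 of the 8 had an unadjusted p under 0.05 in limma. Their part in the results was not tested. The ACTB 3′ minus 5′ difference, a sign of RNA integrity, was 0.74 in SAH-BCL9B 2 and between 1.20 and 1.38 in the other 5 arrays (exact two-sided permutation p = 0.4 between groups). Without SAH-BCL9B 2 and vehicle 3, 9 member probe sets fell.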

How the data were processed

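Per the labels, cRNA was prepared from 100 ng of total RNA of each of 6 DLD1 cultures and hybridised to Affymetrix Human Genome U133 Plus 2.0 arrays. The authors deposited 1 table of log2 values, 54675 probe sets by 6 arrays. Per the submitters' processing notes it was made with RMA and affy (versions: not given in the sources used here). The quantile step of RMA equalises the arrays' distributions and so hides a shift common to most genes. That the scale is log2 was read from the values. The number of arrays limits the precision. Probe sets were named through GEO's platform annotation, with Entrez IDs checked against RefSeq (41037 of 41091 that name 1 gene matched). The groups were compared in R 4.3.3 with lmFit and eBayes of limma 3.58.1, without covariates, over 54613 probe sets, leaving out 62 controls, and over 19775 genes, with Benjamini-Hochberg adjustment. The members and lists, and the rule that named every member, at most 4 passing genes per list, ATF4 and ALDH1L1, were chosen with earlier results of these data known. Listed genes without a probe set naming them alone were not analysed here. Deviations of same-numbered arrays had r = 0.41, 0.06 and -0.31 over probe sets for replicates 1, 2 and 3. Their sign was not the same throughout and the labels name no pairs, so the numbers were not taken as pairs. The replicate 1 arrays did deviate together in part, and a replicate block was run as an alternative. On simulated arrays, 67 of 100 probe sets lowered by 1 on the log2 scale and 3 of 100 lowered by 0.5 were recovered among 54613, with 0 false calls. Only those probe sets were changed, all drawn from above the median level, and the noise was independent between arrays. In the real data 749 probe sets were called lower and 614 higher, so the simulation does not measure the power or error rate of the real calls. Alternatives covered a replicate block, a filter on low values, 2 renormalizations, a variance trend with robust fit, array weights, arrays left out, the mean of all probe sets and, chosen after seeing the data, shared probe sets. Plots were drawn with matplotlib 3.10.9.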

Additional observations from a re-analysis of the deposited data

How the results depend on the processing

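Of 721 alternative values, 618 kept their direction and side of the threshold (counts stayed within 1.5 times), 63 lost the threshold, 25 counts moved and 15 values turned sign. With the replicate number as a block, 4 member probe sets, 0 purine genes and 0 folate genes fell. Among folate genes the count was 0 with median centring, with the mean of all probe sets and without vehicle 3 and SAH-BCL9B 2 together, and 2 with the filter on low values, the second quantile normalization, the variance trend and array weights. Without vehicle 3 and SAH-BCL9B 2 the count of purine genes was 1. With 1 array left out, 4 to 9 member probe sets, 0 to 4 purine genes and 0 folate genes fell. With shared probe sets, MTHFD1L minus MTHFD1 turned to -0.48. Sign turns were otherwise those of dim or small values. SHMT1 217304_at gave -0.040 with array weights and -0.087 without vehicle 3 and SAH-BCL9B 2, and -0.042 to 0.079 with 1 array left out. ALDH1L1 gave -0.039 and -0.16 under the same settings, and -0.076 to 0.18 with 1 array left out. With 1 array left out the change ran from -0.047 to 0.19 for ALDH1L2 1556841_a_at and from -0.056 to 0.081 for SHMT1 231701_s_at. The cause of these moves was not tested. Signal over background is unknown, which limits SHMT1, MTHFD1L and ALDH1L2 most.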
